A study of Mus musculus with 144 samples.

Results

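Dbp, Tef, Hlf and Nfil3 are 4 genes of the basic leucine zipper family, and they were taken by symbol from the table of 51912 genes together with the 17 of 29199 filtered polyadenylation sites that lie in them. Dbp had 4 such sites, Tef 2, Hlf 10 and Nfil3 1. Mouse liver RNA was measured by QuantSeq, a 3′ mRNA method that gives reads at the end of each transcript, so that CPM values (counts scaled to the same total in every library) carry no transcript-length term and can be set side by side between genes. The study asked how the use of polyadenylation sites changes over the day. All animals were male C57BL/6J mice kept under 12 h light and 12 h darkness, with free access to food and water, either wild type or Bmal1-/-, which lack the clock activator BMAL1 (gene Arntl). The labels give neither the age of the mice nor the deleted part of Bmal1, and they name no tissue restriction of the deletion. There were 4 series of 36 libraries: wild-type liver as total RNA, nuclear RNA and polysomal RNA, and total RNA of Bmal1-/- liver, each with 6 libraries at zeitgeber time (ZT, hours after lights on) 2, 6, 10, 14, 18 and 22. Nuclei were pelleted through a sucrose cushion after hypotonic washes, and polysomes were collected from a sucrose gradient of cycloheximide-treated tissue. The labels do not say whether the 6 libraries of a group came from separate mice, so p-values measure only the spread between these libraries, which may be technical.

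DBP, TEF and HLF are the PAR bZIP factors, named for a domain rich in proline and acidic residues, and they activate transcription from a DNA element called the D-box. NFIL3, also known as E4BP4, binds the same element and represses. In the textbook scheme the clock activators CLOCK and BMAL1 act on E-boxes, among them those of Dbp, while the REV-ERB repressors (Nr1d1, Nr1d2) and ROR activators act on RORE elements, among them those of Nfil3. In liver the PAR bZIP factors are known for driving daily expression of enzymes of drug, bile acid and lipid metabolism.

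The 150 bases before the transcript starts of the RefSeq promoter table (build GRCm38.p6) are shown because textbooks place the 4 genes under different elements. For Dbp and Nfil3 these starts lie inside the RefSeq gene bounds given with the sites, so that nearly all of the Dbp window and all of the Nfil3 window lie within those bounds and not upstream of the gene's outer end. The later of the Tef starts lies inside its bounds too. Each is written 5′ to 3′ on the gene's strand, and capitals mark a match, on either strand, to the E-box CACGTG, the D-box TTANGTAA, the RORE (AANTN followed by GGTCA) or the cyclic AMP response element (CRE) TGACGTCA, none of which overlapped another. Tef has 2 starts in the table.
Dbp, chr7:45705097-45705246, plus strand: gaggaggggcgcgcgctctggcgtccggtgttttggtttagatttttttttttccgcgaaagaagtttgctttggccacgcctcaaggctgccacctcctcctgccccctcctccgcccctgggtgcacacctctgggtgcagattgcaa
Tef, first start, chr15:81802523-81802672, plus strand: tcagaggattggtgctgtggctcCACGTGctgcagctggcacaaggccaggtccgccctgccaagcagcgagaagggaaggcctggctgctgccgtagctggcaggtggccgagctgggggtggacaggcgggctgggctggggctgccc
Tef, second start, chr15:81811264-81811413, plus strand: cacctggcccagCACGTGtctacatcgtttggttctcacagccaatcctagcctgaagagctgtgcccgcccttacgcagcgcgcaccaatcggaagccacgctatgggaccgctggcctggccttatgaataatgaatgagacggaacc
Hlf, chr11:90390918-90391067, minus strand: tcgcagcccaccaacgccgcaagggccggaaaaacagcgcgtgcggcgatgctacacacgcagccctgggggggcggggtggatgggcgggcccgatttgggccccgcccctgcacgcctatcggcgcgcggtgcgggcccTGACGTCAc
Nfil3, chr13:52981040-52981189, minus strand: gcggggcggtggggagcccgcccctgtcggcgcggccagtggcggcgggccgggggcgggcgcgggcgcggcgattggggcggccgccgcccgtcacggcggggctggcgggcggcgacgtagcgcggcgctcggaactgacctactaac
Both Tef windows held an E-box, 127 and 138 bases before the start, and the Hlf window held a CRE ending next to the start, at 9 bases. In the Dbp and Nfil3 windows none of these motifs occurred, which says nothing of sites elsewhere in the genes or before their outer ends. The search covered 300 bases per start, reaching past it. Among the 32851 RefSeq windows of that length, 7.15% held the E-box, 2.32% the D-box, 0.606% the RORE and 1.79% the CRE.

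Library totals ran from 5316601 to 9831142 counts in wild-type total RNA, 1662449 to 6620128 in nuclear RNA, 2578048 to 13068044 in polysomal RNA and 4379549 to 14281894 in Bmal1-/- RNA. All 5 hepatocyte markers were present in every series. Arntl checks the genotype labels only in part, since reads at its 3′ end can lie outside a deletion. Its level was 6.74 ± 5.40 CPM in wild-type (SD, n = 36, 0.251 to 19.3) and 11.5 ± 2.98 CPM in Bmal1-/- total RNA (5.17 to 18.6). Xist, the RNA of the inactive X chromosome, exceeded 100 CPM in 4 libraries labelled male, 1 in each series and all at ZT22, against at most 5.67 CPM in the other libraries. Lung markers summed to 55.8 to 915 CPM in the 6 polysomal libraries of replicate 1 against 0 to 1.45 CPM in the other 30. Exocrine pancreas markers exceeded 10 CPM in 3 of those other 30, with a highest sum of 833 CPM, and reached at most 0.151 in replicate 1. Cholangiocyte markers were higher in Bmal1-/- (33.3 to 117 CPM, median 58.2) than in wild-type libraries (9.90 to 53.0, median 19.0), and stellate cell markers were 235 to 415 (median 312) against 171 to 341 (median 243). The part of these values in any difference between series was not tested. In bulk RNA, fewer cells of a type and less RNA per cell cannot be told apart.

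In wild-type total RNA Dbp and Tef had their highest means at ZT10 and their lowest at ZT2, Hlf had its highest mean at ZT14, and the repressor Nfil3 was highest at ZT2 and lowest at ZT10. Dbp, the activator with the steepest cycle, had a mean of 1.05 ± 0.860 CPM at ZT2 (SD, n = 6), with single libraries at 0.207, 0.678 (median) and 2.275 (highest, from 2 to 19 counts). It stood at 38.1 ± 22.3 CPM at ZT6 (13.3, 39.0 and 61.3 as lowest, median and highest) and at 97.6 ± 28.1 at ZT10 (64.9, 92.5 and 136.8). From there its mean went to 20.04 ± 11.9 at ZT14 (3.03, 18.6, 38.6), 4.05 ± 1.15 at ZT18 (2.245, 4.065, 5.77) and 1.27 ± 0.505 at ZT22 (0.712, 1.17, 2.12). All 6 libraries at ZT10 were above every library of the other times, and the means of the highest and lowest time differed 93.1-fold. In order of level, ZT10 was apart from ZT6 and ZT18 was apart from ZT22, while ZT6 and ZT14, ZT14 and ZT18, and ZT22 and ZT2 overlapped.

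Tef, the most abundant of the 3 activators at most times, had its lowest mean at ZT2, 30.7 ± 10.7 CPM (19.3, 28.4 and 45.8 as lowest, median and highest library). Its means were 93.7 ± 36.2 at ZT6 (43.8, 94.3, 139.5) and 223.3 ± 30.9 at ZT10 (188.2, 219.9, 279.8). They were 152.6 ± 39.1 at ZT14 (82.35, 161.4, 187.2), 98.8 ± 16.1 at ZT18 (75.1, 102.7, 116.4) and 50.5 ± 14.2 at ZT22 (30.9, 48.3, 67.1). The 6 libraries at ZT10 lay above all others, and every other pair of neighbours in the order of levels overlapped. Hlf, the third activator, moved least: 37.1 ± 11.6 CPM at ZT2 (26.2, 34.3, 57.4), 47.15 ± 10.9 at ZT6 (36.2, 47.1, 59.3) and 71.3 ± 11.6 at ZT10 (59.9, 67.5, 89.0). It was 73.4 ± 20.7 at ZT14 (44.05, 71.0, 102.5), 54.1 ± 7.15 at ZT18 (41.0, 55.3, 61.4) and 46.1 ± 7.998 at ZT22 (33.7, 45.7, 58.0). None of the 5 pairs of neighbouring Hlf levels was apart, and its highest time mean was 1.98 times its lowest. Nfil3 was highest at ZT2, 32.6 ± 5.42 CPM (26.3, 30.65, 39.65), and fell to 10.1 ± 1.63 at ZT6 (7.90, 10.02, 12.3). It was lowest at ZT10, 5.71 ± 0.880 (4.25, 5.74, 6.95), with no overlap with ZT6. Its means were 13.4 ± 1.49 at ZT14 (11.4, 13.5, 15.1), 18.1 ± 4.58 at ZT18 (12.0, 17.6, 25.6) and 27.9 ± 6.39 at ZT22 (20.8, 26.5, 35.5). The trough of Nfil3 thus fell at the time at which Dbp and Tef were highest.

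A 24 h cosine curve was fitted to each gene and tested with edgeR's quasi-likelihood F test, with Benjamini-Hochberg adjustment over all genes and a threshold of 0.05. In wild-type total RNA 18.9% of 11964 genes passed, and all 4 genes did. The fitted peak-to-trough change of Dbp was 6.58 ± 0.48 on the log2 scale (SE), with a peak at ZT 10.03 ± 0.248 h (adjusted p = 1.062e-11). Tef followed at ZT 12.3 ± 0.325 h with 2.53 ± 0.22 (adjusted p = 1.546e-09) and Hlf at ZT 13.3 ± 0.589 h with 0.94 ± 0.14 (adjusted p = 3.559e-05). Nfil3 peaked at ZT 22.4 ± 0.326 h with 2.28 ± 0.20 (adjusted p = 9.404e-10). As ratios, these curves spanned 95.4-fold for Dbp, 5.79-fold for Tef, 1.92-fold for Hlf and 4.87-fold for Nfil3. With replicates 4 to 6 alone, the Hlf curve measured 0.75 and no longer passed (adjusted p = 0.09992 by edgeR).

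Between successive time points, few genes changed in wild-type total RNA, and Dbp, Tef or Nfil3 was among them at 4 of the 6 steps. From ZT2 to ZT6, where 0.710% of 11964 genes passed (edgeR), Dbp rose by 5.09 ± 0.51 on the log2 scale (SE, adjusted p = 1.013e-07), the largest change in either direction of any gene tested. Tef rose by 1.57 ± 0.23 at the same step (adjusted p = 8.728e-05), and Nfil3 fell by 1.73 ± 0.17 (adjusted p = 3.265e-08). From ZT6 to ZT10, where 0.802% passed, Tef rose by 1.26 (adjusted p = 0.001976) and Nfil3 fell by 0.83 (adjusted p = 0.0103), while the Dbp difference of 1.39 had an adjusted p of 0.07813. From ZT10 to ZT14, where 1.26% passed, Dbp fell by 2.28 (adjusted p = 0.0008917) and Nfil3 rose by 1.23 (adjusted p = 8.052e-05). From ZT14 to ZT18 only 0.0334% of genes passed, and Dbp was among them with a drop of log2 -2.22 (adjusted p = 0.03343). That call was lost when any replicate but the fourth was left out. At the steps from ZT18 to ZT22 and from ZT22 to ZT2, where 0.0752% and 0.0585% passed, none of the 4 genes did, and the nearest was Tef from ZT18 to ZT22 with log2 -1.02 (adjusted p = 0.06608). Hlf passed at none of these steps in edgeR. Its smallest unadjusted p in that model was 0.002222, from ZT6 to ZT10 (log2 0.59, adjusted p = 0.1266 by edgeR).

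The ZT6 libraries of the wild type fell apart by replicate number. In total RNA, Dbp averaged 58.1 ± 3.57 CPM in replicates 1 to 3 and 18.1 ± 5.22 in replicates 4 to 6 (SD, n = 3 each). Tef averaged 124.2 ± 14.04 against 63.2 ± 17.2 and Hlf 57.0 ± 2.19 against 37.4 ± 1.58, without overlap for any of the 3 activators. In polysomal RNA the order was the other way round for all 3 activators, again without overlap. Dbp had 8.28 to 15.5 CPM in replicates 1 to 3 and 53.0 to 80.3 in replicates 4 to 6. Tef had 27.8 to 55.95 against 107 to 115.4 CPM, and Hlf 41.4 to 72.3 against 83.5 to 91.05. The labels do not say what these numbers stand for. The adipocyte markers, mostly Cfd, had a median sum of 17.4 CPM in wild-type total replicates 1 to 3 and 0.138 in replicates 4 to 6. Nuclear RNA had 49.8 and 0.458 CPM, and polysomal RNA had 0.0799 and 6.02, the other way round. The part of such a difference in the ZT6 values was not tested. Fitted peaks in total RNA were at ZT 9.53 for Dbp, 11.7 for Tef, 13.2 for Hlf and 21.97 for Nfil3 in replicates 1 to 3, and at ZT 10.6, 12.9, 13.5 and 22.9 in replicates 4 to 6. The order of the 4 peaks was the same in both.

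**Figure D1:**
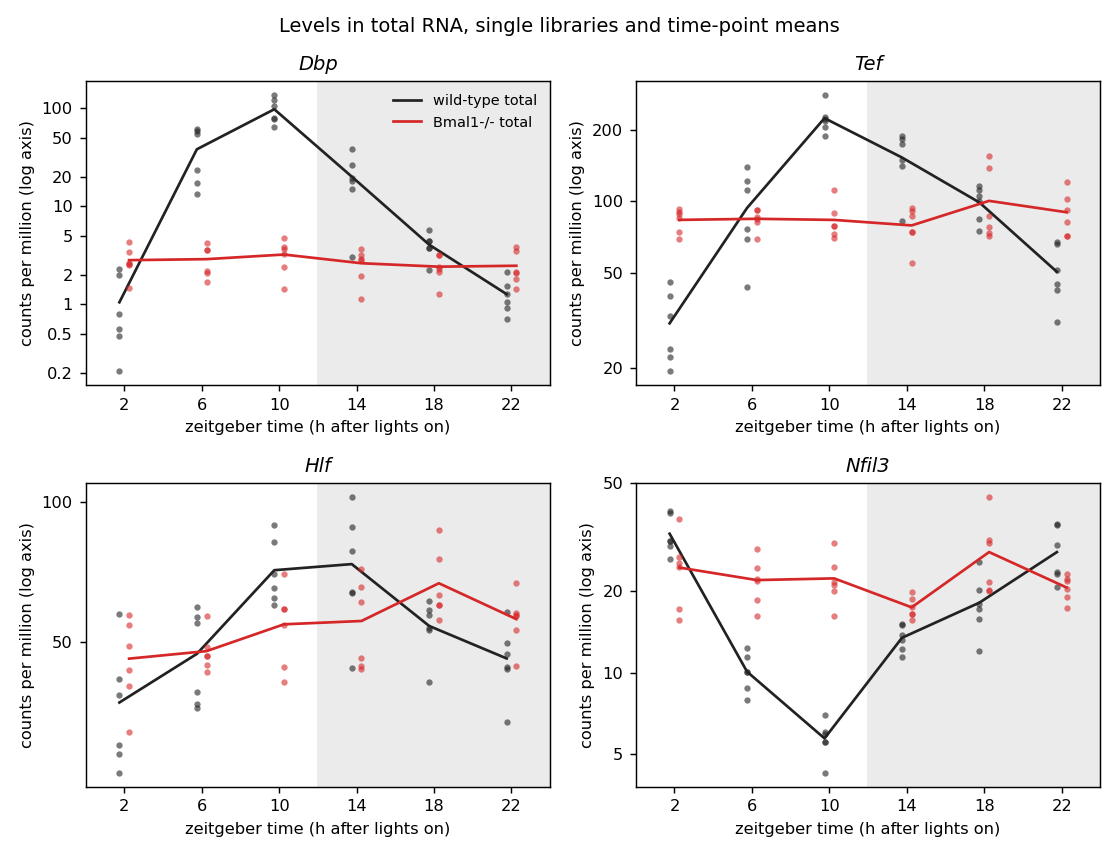
Levels of Dbp, Tef, Hlf and Nfil3 in total RNA in CPM on a log axis against zeitgeber time in hours. Points are single libraries (6 per time and genotype), lines join the time-point means, black is wild type, red is Bmal1-/-, and the grey band is the dark phase. The wild-type means of Dbp run from 1.05 to 97.6 CPM while those of Bmal1-/- stay between 2.42 and 3.22.

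In Bmal1-/- liver the daily curves of these genes were flat or nearly so, and the levels lay between the wild-type extremes. Time-point means of Dbp were 2.42 to 3.22 CPM, with single libraries at 1.14 to 4.77. Those of Tef were 79.1 to 100.3 CPM (single libraries 54.8 to 155.0), those of Hlf 46.1 to 66.8 (32.1 to 86.9), and those of Nfil3 17.4 to 27.9 (15.6 to 44.7). No pair of neighbouring levels was apart for any of the 4. The cosine test passed 0.00825% of 12126 genes in Bmal1-/- RNA and none of these 4 in edgeR. Among all genes 1 passed and 491 had an unadjusted p below 0.05, and DESeq2 passed 0. Hlf, with a fitted peak-to-trough of 0.39 ± 0.12 (log2, SE), was the only member with an unadjusted p below 0.05 (0.007626, adjusted p = 0.9999).

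The difference in rhythm between the genotypes was tested itself, as the interaction of genotype and curve. By edgeR 5.18% of 12082 genes passed, and so did all 4 genes. The curve that separates the genotypes spanned 6.27 on the log2 scale for Dbp (adjusted p = 5.425e-13), the fourth largest of all genes tested, 2.67 for Tef (adjusted p = 6.783e-11) and 2.05 for Nfil3 (adjusted p = 4.506e-07). For Hlf it spanned 0.79 (adjusted p = 0.0174), a call that was lost without replicate 2 (0.68), 3 (0.76), 5 (0.71) or 6 (0.74) and with replicates 4 to 6 alone (0.64). For Nfil3 the call was lost with replicates 4 to 6 alone (1.70, adjusted p = 0.05667).

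**Figure D2:**
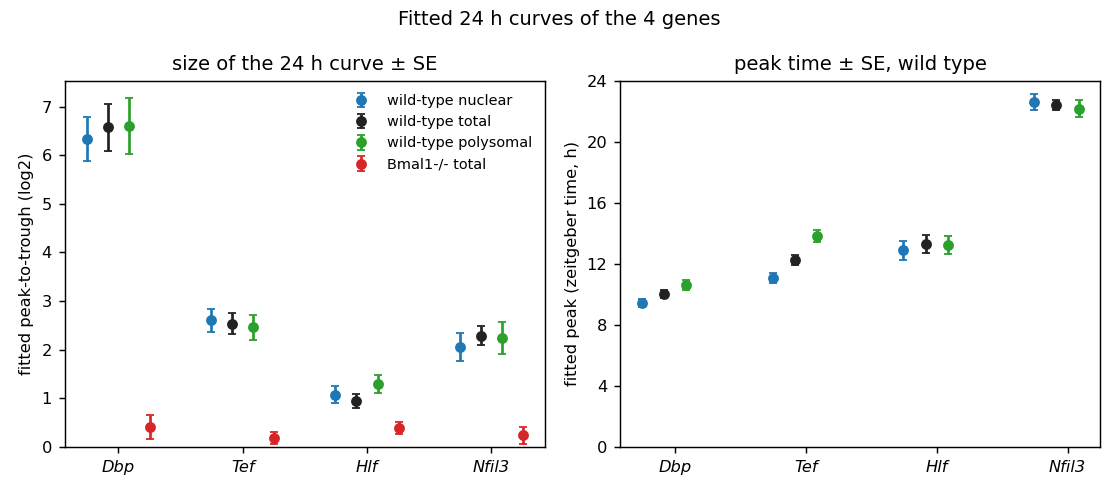
Fitted 24 h curves in the 4 series. The left panel gives the peak-to-trough change on the log2 scale and the right panel the peak in zeitgeber hours for the 3 wild-type series, with bars of 1 SE. The Bmal1-/- points lie between 0.18 and 0.41, and the wild-type peaks run from Dbp through Tef and Hlf to Nfil3 in total RNA.

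Averaged over the day, Dbp was lower and Nfil3 higher in Bmal1-/- liver. The day-mean level of Dbp fell by 1.75 ± 0.17 on the log2 scale (SE, edgeR adjusted p = 1.162e-13). That of Nfil3 rose by 0.44 ± 0.07 (adjusted p = 7.728e-07). These log2 values average the times with equal weight on the log scale, so they are not ratios of mean CPM. Arithmetic means over 36 libraries were 27.0 ± 37.5 CPM in wild type and 2.74 in Bmal1-/- RNA for Dbp. For Nfil3 they were 17.97 ± 10.4 and 22.4 CPM. Tef (log2 -0.13 ± 0.08, adjusted p = 0.1788) and Hlf (-0.07 ± 0.07, adjusted p = 0.3953) did not pass. In this comparison 44.1% of 12082 genes passed, 2701 higher and 2627 lower, so that 2 of 4 genes past the threshold is close to the share among all genes. In replicates 1 to 3 alone Tef passed too, with log2 -0.39 (adjusted p = 9.263e-05).

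At single times, Dbp and Tef were lower and Nfil3 higher in the mutant at ZT10, while at ZT2 Tef was higher in the mutant and the other 3 did not pass. At ZT10, where 16.4% of 12082 genes passed, Dbp was 97.6 CPM in wild type and 3.22 in Bmal1-/- RNA, a ratio of 30.3 (log2 -4.97 ± 0.38, adjusted p = 1.367e-15 by edgeR). Tef differed by log2 -1.496 ± 0.20 (adjusted p = 4.315e-08), with 188.2 to 279.8 CPM against 69.9 to 111.4. Nfil3 was 3.90 times as high in the mutant (log2 1.89 ± 0.19, adjusted p = 5.775e-12), with 16.25 to 30.2 against 4.25 to 6.95 CPM. The libraries of the genotypes did not overlap for any of these 3 genes at ZT10. Hlf overlapped there and at every other time, and its ZT10 value of log2 -0.45 had an adjusted p of 0.0535.

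At ZT6, where 10.1% of genes passed by edgeR, Dbp was 13.2 times as high in wild type (log2 -3.78 ± 0.37, adjusted p = 1.04e-11) and Nfil3 was 2.18 times as high in the mutant (log2 1.06 ± 0.18, adjusted p = 2.311e-05), both without overlap. Tef did not pass at ZT6 (log2 -0.20, adjusted p = 0.6078), and the sets of replicates differed in sign, with log2 -0.61 in replicates 1 to 3 (adjusted p = 0.0338) and 0.34 in replicates 4 to 6 (adjusted p = 0.5592). Within these sets Dbp differed by log2 -4.38 and -2.77, and Nfil3 in replicates 4 to 6 by 0.62 (adjusted p = 0.1899). At ZT14, where 9.73% passed, Dbp was lower in the mutant (log2 -3.00 ± 0.37, adjusted p = 2.529e-08) with overlapping libraries, as was Tef (-1.05 ± 0.20, adjusted p = 0.0001468). Hlf had its only call at ZT14 (-0.50 ± 0.17, adjusted p = 0.04512), and it was lost when any replicate but the fourth was left out. Nfil3 at ZT14 did not pass (log2 0.29, adjusted p = 0.3597), although its libraries did not overlap, at 11.4 to 15.1 CPM in wild type and 15.6 to 19.9 in the mutant.

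At ZT2, where 9.76% of genes passed by edgeR, Tef was higher in Bmal1-/- RNA (log2 1.37 ± 0.20, adjusted p = 2.662e-06), at 69.7 to 93.2 CPM against 19.3 to 45.8. Dbp was 1.46 to 4.28 CPM in the mutant against 0.207 to 2.27 (log2 1.32 ± 0.46, adjusted p = 0.05244), which passed when replicate 2 was left out (1.61). Nfil3 at ZT2 had log2 -0.50 (adjusted p = 0.05589), and passed when replicate 4 was left out (-0.64). At ZT22, where 6.97% passed, Tef was higher in the mutant (0.72 ± 0.20, adjusted p = 0.01591) and Nfil3 lower (-0.54 ± 0.17, adjusted p = 0.04495). Without the 4 libraries with Xist reads neither passed, with adjusted p = 0.08597 for Tef and 0.05252 for Nfil3. The Tef call at ZT22 was also lost without replicate 1 (0.57) or 5 (0.68), and the Nfil3 call without replicate 1 (-0.53), 2 (-0.45), 3 (-0.45) or 6 (-0.59). The Bmal1-/- library with Xist reads had the highest Tef value of its group, 120.3 CPM against 71.2 to 102.4. At ZT18, where 12.7% of genes passed, none of the 4 did. The lowest adjusted p values there were 0.09157 for Nfil3 (log2 0.44) and 0.1157 for Dbp (-0.93).

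Activators and repressor bind the same element, so their counts were also set against each other within each library, which needs no scaling between libraries. The log2 ratio of summed Dbp, Tef and Hlf counts to Nfil3 counts in wild-type total RNA was 1.05 ± 0.60 at ZT2 (SD, n = 6, single libraries 0.30 to 1.76) and 6.09 ± 0.32 at ZT10 (5.58 to 6.48). It was 4.06 ± 0.78 at ZT6, 4.15 ± 0.47 at ZT14, 3.14 ± 0.43 at ZT18 and 1.835 ± 0.31 at ZT22. As geometric means, activator transcripts outnumbered Nfil3 transcripts 2.07-fold at ZT2 and 68.2-fold at ZT10. In Bmal1-/- RNA the ratio stayed between 5.61-fold and 7.83-fold. The time means thus ranged over 32.9-fold in wild type and 1.40-fold in the mutant.

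The mutant's ratio was above the wild type's at ZT2 (log2 difference 1.44) and ZT22 (1.01) and below it at ZT6 (-1.425), ZT10 (-3.41) and ZT14 (-1.18). The 12 libraries did not overlap at these 5 times, and each exact two-sided permutation p was 0.002165, the smallest that 6 against 6 libraries allow (adjusted over 6 times, 0.002597). At ZT18 the difference was -0.52 with overlapping libraries (exact permutation p = 0.03896, adjusted 0.03896). The gap at ZT6 was narrow, with the lowest wild-type library at 3.07 and the highest mutant library at 3.05. With a pseudocount of 5 in place of 0.5, the ZT6 libraries overlapped (exact permutation p = 0.004329, adjusted 0.005195). With 3 against 3 libraries the smallest p is 0.1, so that no time can pass in either set of replicates. The ZT6 difference was -2.35 in replicates 1 to 3 and -0.50 in replicates 4 to 6.

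**Figure D3:**
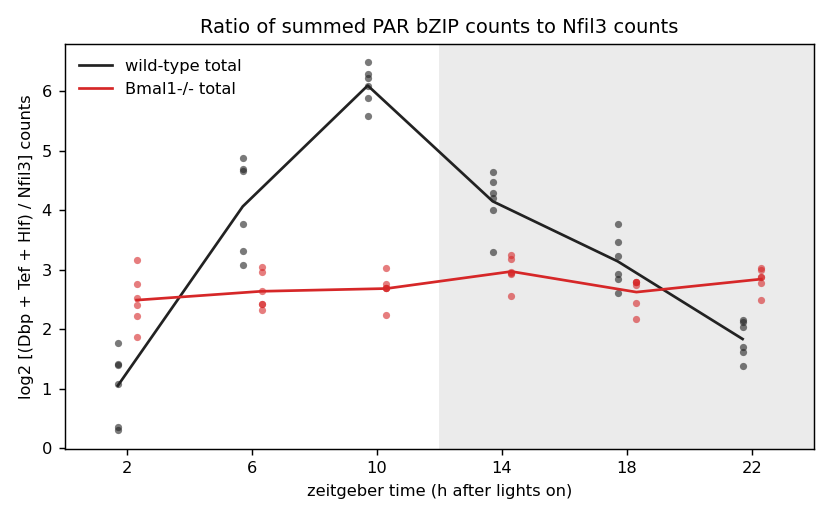
Log2 ratio of summed Dbp, Tef and Hlf counts to Nfil3 counts against zeitgeber time in hours, with points for single libraries of total RNA and lines through the time-point means. The wild type (black) runs from 1.05 at ZT2 to 6.09 at ZT10, and Bmal1-/- (red) stays between 2.49 and 2.97.

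The make-up of the activator pool also changed over the day. The summed level of Dbp, Tef and Hlf was 68.8 ± 17.5 CPM at ZT2 and 392.2 ± 49.7 at ZT10 in wild-type total RNA (SD, n = 6). Dbp made up 1.43 ± 0.950% of it at ZT2 and 24.6 ± 4.99% at ZT10. Hlf was the largest share at ZT2, 54.1 ± 9.46%, and 18.4 ± 3.73% at ZT10, and Tef ranged from 44.5% at ZT2 to 62.7% at ZT18. In Bmal1-/- RNA the sum was 132.4 to 169.6 CPM, of which Dbp made up 1.57 to 2.27%, Tef 57.6 to 63.1% and Hlf 34.7 to 40.5%. The mutant's pool thus held a Dbp share close to that of the wild type at its trough, and a total between the wild type's extremes.

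Nuclear RNA holds transcripts before export and polysomal RNA those on ribosomes, and all 4 genes cycled in both series. In nuclear RNA, where 5.99% of 11172 genes passed the cosine test (edgeR), all 4 genes did: Dbp with a log2 peak-to-trough of 6.33 ± 0.46 and a peak at ZT 9.43 ± 0.247 h, Tef with 2.60 ± 0.23 at 11.1 ± 0.342 h, Hlf with 1.07 ± 0.17 at 12.9 ± 0.618 h and Nfil3 with 2.05 ± 0.28 at 22.6 ± 0.521 h. Their adjusted p values were 3.253e-12, 2.161e-09, 0.0002188 and 1.019e-05. In polysomal RNA, where 7.90% of 10691 genes passed, all 4 did too: Dbp with 6.59 ± 0.58 at ZT 10.6 ± 0.307 h, Tef with 2.46 ± 0.26 at 13.8 ± 0.395 h, Hlf with 1.29 ± 0.19 at 13.2 ± 0.571 h and Nfil3 with 2.24 ± 0.33 at 22.2 ± 0.562 h. Their adjusted p values were 4.925e-09, 1.346e-07, 3.262e-05 and 0.0001514. Fitted peaks ran from Dbp through Tef and Hlf to Nfil3 in nuclear as in total RNA, while in polysomal RNA Tef and Hlf stood in the other order with overlapping SEs. The Hlf call in nuclear RNA was lost with replicates 4 to 6 alone (1.02, adjusted p = 0.08595), and the polysomal calls of Hlf (1.17, adjusted p = 0.1275) and Nfil3 (1.81, adjusted p = 0.2466) with replicates 1 to 3 alone.

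The peak of Tef came 1.19 h earlier in nuclear and 1.54 h later in polysomal than in total RNA, but neither difference in rhythm passed over all genes. Dbp peaks stood in the same order, at ZT 9.43 in nuclear, 10.03 in total and 10.6 in polysomal RNA. Tef peaks also differed between the sets of replicates within total RNA, as given above. By edgeR the rhythm differed from total RNA in 0% of 11864 genes for nuclear RNA, with 244 at an unadjusted p below 0.05, and in 0% of 11556 genes for polysomal RNA, with 673. The unadjusted p for Tef was 0.04298 (adjusted 0.9997) in the nuclear and 0.01263 (adjusted 0.7327) in the polysomal comparison. No other tool was run on these differences. In single libraries Tef was 144.5 to 297.6 CPM in nuclear, 43.8 to 139.5 in total and 27.8 to 115.4 in polysomal RNA at ZT6, so that nuclear libraries lay above both others. At ZT18 the means were 131.0 nuclear, 98.8 total and 154.6 polysomal, with overlapping libraries. Over the whole day, too, Tef was higher in nuclear than in total RNA (log2 0.48).

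**Figure D4:**
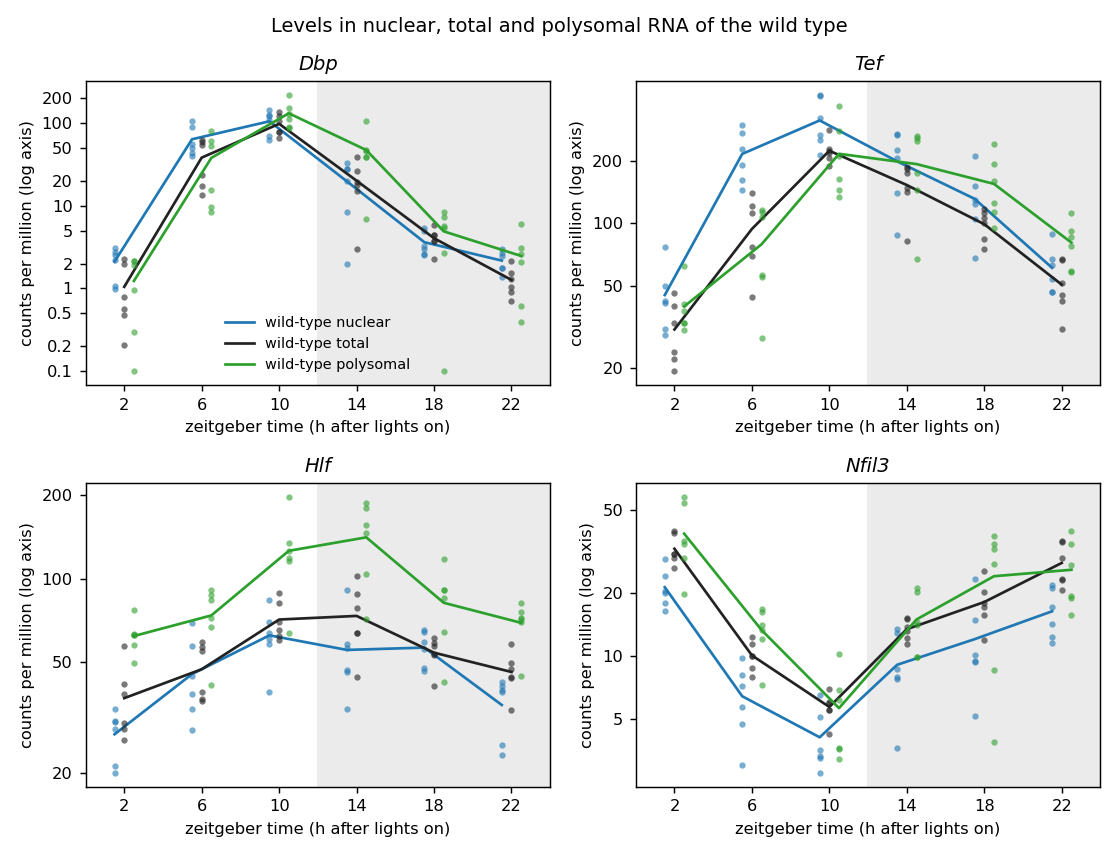
Levels of the 4 genes in nuclear (blue), total (black) and polysomal (green) RNA of wild-type liver, in CPM on a log axis, against zeitgeber time in hours; points are single libraries and lines join the means. The 2 polysomal libraries with 0 Dbp counts, at ZT2 and ZT18, are drawn at 0.1 CPM, and Hlf means by gene count are highest in polysomal RNA at all 6 times.

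Levels averaged over the day differed between the RNA fractions gene by gene. Hlf was higher in polysomal than in total RNA by 0.67 ± 0.09 on the log2 scale (SE, edgeR adjusted p = 2.746e-10), with means over 36 libraries of 92.4 against 54.9 CPM. By gene count it was lower in nuclear RNA (log2 -0.30 ± 0.08, edgeR adjusted p = 0.000365, mean 47.0 CPM). That holds for the gene count only, which leaves out most nuclear Hlf reads far inside the gene. Over all Hlf sites nuclear RNA held more counts (13741 against 12384 in total RNA), although its libraries were smaller (median 3993642 against 7749864.5). The level over all sites was not tested. At ZT14, by gene count, Hlf had a lowest, median and highest library of 71.8, 151.3 and 187.5 CPM in polysomal, 44.05, 71.0 and 102.5 in total and 33.9, 51.8 and 90.7 in nuclear RNA. Nfil3 was lower in nuclear RNA by log2 -0.65 ± 0.10 (adjusted p = 9.701e-09, 11.6 against 17.97 CPM), and Tef was higher there by 0.48 ± 0.10 (adjusted p = 6.091e-06, 160.6 against 108.3 CPM). Dbp did not pass in nuclear RNA (0.34 ± 0.19, adjusted p = 0.09785), and passed in replicates 1 to 3 alone (0.54) and without replicate 4 (0.37). The Hlf call in nuclear RNA was lost with replicates 4 to 6 alone (-0.23, adjusted p = 0.05984). In nuclear against total RNA 83.8% of 11864 genes passed, with a median absolute change of 0.74, so these values are of usual size or below.

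In polysomal against total RNA 76.0% of 11556 genes passed by edgeR, and Hlf was the only one of the 4. Dbp (log2 0.42 ± 0.23, adjusted p = 0.0913), Tef (0.22 ± 0.11, adjusted p = 0.06775) and Nfil3 (0.11 ± 0.12, adjusted p = 0.3739) did not pass. Tef changed sign between the sets of replicates, with log2 -0.32 in replicates 1 to 3 (adjusted p = 0.01105) and 0.63 in replicates 4 to 6 (adjusted p = 7.917e-06). It passed without replicate 1, whose polysomal libraries carry the lung markers (0.28, adjusted p = 0.02356), and without replicate 3 (0.36). Dbp passed in replicates 4 to 6 alone (0.74, adjusted p = 0.006012) and without replicate 2 (0.61) or 3 (0.61). The activator to Nfil3 ratio ranged over 34.0-fold across the day in nuclear and 31.2-fold in polysomal RNA, both with the highest mean at ZT10 and the lowest at ZT2.

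Polyadenylation sites are given by position (mm10 as in the authors' lists) and by the distance of the site's end to the RefSeq gene end. Dbp (chromosome 7, 45705100 to 45710203, plus strand) had 4 filtered sites within 404 bases of its end: 45709741 to 45709799, 45709817 to 45709835, 45709862 to 45709997 and 45710015 to 45710158. In wild-type total RNA they took 12.8 ± 6.10%, 7.28 ± 3.94%, 45.8 ± 6.94% and 34.1 ± 10.8% of the gene's site counts (SD over 23 libraries with at least 20 such counts). In polysomal RNA the site nearest the end took 60.6 ± 12.5% (n = 22) and the farthest 3.32 ± 3.22%. Taken as a share of the gene's summed site counts, use of the end site was higher by 0.80 ± 0.12 on the log2 scale in polysomal RNA (edgeR adjusted p = 2.062e-08). The other 3 fell by 2.92 (adjusted p = 1.523e-06), 1.16 (adjusted p = 0.01029) and 0.42 (adjusted p = 0.01913), from the farthest to the nearest. These fitted values give each time equal weight, though few Dbp site counts were left at ZT2 and ZT22. The groups then held 42 and 71 in polysomal and 49 and 44 in nuclear RNA. Pooled over libraries, the farthest site took 4.44% in polysomal, 4.15% in nuclear and 13.3% in total RNA, log2 ratios of -1.59 and -1.69 to total RNA. Dbp transcripts that end at the most distal site were thus a larger share on polysomes than in total RNA. In nuclear RNA the end site took 42.3 ± 9.88% (n = 18, usage 0.48 ± 0.11, adjusted p = 0.0001171) and the farthest 3.91% (log2 -2.69, adjusted p = 2.265e-06).

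Tef (chromosome 15, 81802673 to 81826863, plus strand) had a minor site at 81826641 to 81826690 and a main site at 81826734 to 81826871, and the minor one was used less in both fractions. It took 13.1 ± 4.39% of counts in total, 9.37 ± 3.78% in nuclear and 9.10 ± 3.75% in polysomal RNA (SD, n = 36), with usage at log2 -0.48 (edgeR adjusted p = 0.0006116) and -0.52 (adjusted p = 0.0003581) against total RNA. Nfil3 (chromosome 13, 52967209 to 52982878, minus strand) had 1 site in all, so its usage has no value. Site usage passed in 78.8% of 9635 sites for nuclear and 70.5% of 10266 for polysomal RNA, so a call is the common outcome in both comparisons.

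Hlf (chromosome 11, 90336535 to 90390917, minus strand) spread its counts over 10 filtered sites along the last 4130 bases. Shares and usage here are over filtered sites, which held 74.3% of all Hlf site counts in total, 29.2% in nuclear and 85.0% in polysomal RNA. The site at 90339378 to 90339422, 2843 bases before the gene end, took 18.6 ± 4.64% in total, 35.8 ± 10.8% in nuclear and 27.8 ± 7.30% in polysomal RNA (SD, n = 36). Its usage was higher by 0.92 ± 0.09 (edgeR adjusted p = 6.721e-15) and 0.56 ± 0.09 (adjusted p = 5.074e-08). The main site at 90338557 to 90338702 took 39.5 ± 6.83% in total and 28.9 ± 9.51% in nuclear RNA (log2 -0.47 ± 0.09, adjusted p = 1.685e-06). In polysomal RNA it took 34.5 ± 7.11% (log2 -0.18, adjusted p = 0.01122), a call that in replicates 4 to 6 alone turned to 0.017 and was lost. The site at the gene end, 90336532 to 90336600, took 13.5 ± 4.02% in total and 18.4 ± 7.27% in nuclear RNA (0.44, adjusted p = 0.001432). The site at 90338988 to 90339028 took 8.64 ± 2.26% and 3.97 ± 3.07% (log2 -1.11, adjusted p = 1.18e-07). Over all Hlf sites, filtered or not, the direction in nuclear RNA turned for the calls of higher use: pooled over libraries, the site at 90339378 took 10.6% of counts in nuclear and 13.6% in total RNA, and the gene-end site 5.39% and 10.1%. The main site (8.47% against 29.8%) and that at 90338988 (1.21% against 6.48%) stayed lower. In polysomal RNA the site at 90339378 took 23.1% and stayed higher, while the main site took 30.7% and turned.

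**Figure D5:**
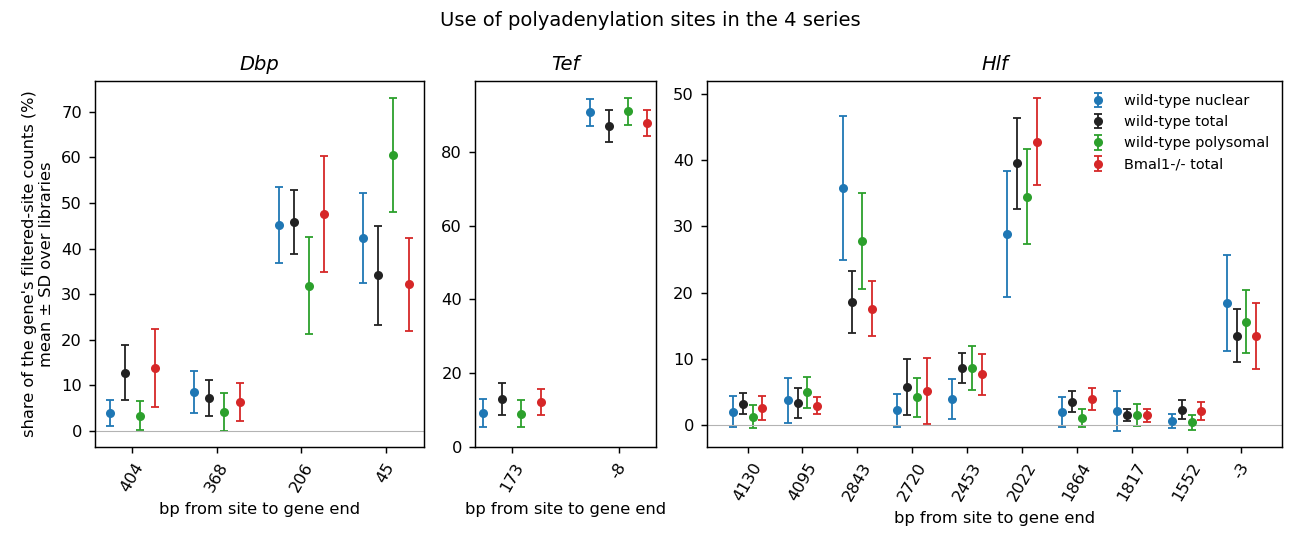
Share of each gene's filtered-site counts (%) taken by its sites, ordered by distance in bp from the site to the gene end (negative past the end), in nuclear (blue), total (black), polysomal (green) and Bmal1-/- total RNA (red), as mean and SD over libraries with at least 20 counts of the gene. The end site of Dbp stands at 60.6% in polysomal and 34.1% in total RNA, and the Hlf site 2843 bp before the end at 35.8% in nuclear and 18.6% in total RNA.

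No tested site of these genes passed for a difference in usage between Bmal1-/- and wild-type liver. Of 11 tested sites in Dbp, Tef and Hlf, 0 passed for usage against wild-type total RNA by edgeR, where 8.59% of 11005 sites passed. So 0 of 11 is close to the share among all sites, and a lack of calls does not show equal use. The nearest was the main Hlf site, at 0.13 ± 0.06 (adjusted p = 0.1674 by edgeR), the only 1 of the 11 with an unadjusted p below 0.05. The Dbp end site took 32.2 ± 10.2% (n = 17) in the mutant, with a usage difference of log2 -0.18 ± 0.14. Dbp had only 765 site counts in the whole mutant series. Its sites at 45709741 and 45709817 had differences of -0.10 ± 0.27 and -0.29 ± 0.31 (SE).

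Site by site, the daily cycle of each gene was seen at nearly all of its sites in Dbp, Tef and Nfil3. In wild-type total RNA 11.1% of 19479 sites had a rhythm in level by edgeR, and so did 4 of 4 tested sites in Dbp, 2 of 2 in Tef, the Nfil3 site and 2 of 5 in Hlf, the main one (adjusted p = 4.403e-05) and that at 90338988 (adjusted p = 0.0006479). In nuclear RNA, where 3.49% of 13402 sites passed, 3 of 3 in Dbp, 2 of 2 in Tef, the Nfil3 site and 0 of 3 in Hlf did. In polysomal RNA, where 3.88% of 16580 passed, 2 of 2 in Dbp, 2 of 2 in Tef, the Nfil3 site and 2 of 6 in Hlf did. In Bmal1-/- RNA 0% of 20191 sites passed, with 640 at an unadjusted p below 0.05, and so 0 of the 9 tested in these genes.

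Usage itself had no daily rhythm past the threshold at any tested site of Dbp, Tef or Hlf. The single Nfil3 site and the Dbp sites in Bmal1-/- RNA were not tested. By edgeR a usage rhythm passed in 0.372% of 10750 sites in wild-type total, 0.0623% of 6420 in nuclear, 0.0343% of 8749 in polysomal and 0% of 11098 in Bmal1-/- RNA, the last with 225 at an unadjusted p below 0.05. In wild-type total RNA the lowest unadjusted p among the tested sites of these genes was 0.007262, for the Hlf site at 90338988 (adjusted p = 0.3076). Next came the Dbp end site with 0.01173 (log2 span 0.59, adjusted p = 0.3629). The Dbp end site took 26.5 ± 5.52% of site counts at ZT6, 30.8 ± 2.51% at ZT10 and 45.5 ± 10.8% at ZT14 (SD, n = 6). At ZT2 and ZT22 no library reached 20 Dbp site counts.

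Nuclear RNA also held Hlf reads far inside the gene, at sites that the authors' filter left out. The 7 Hlf sites more than 5000 bases before the gene end took 66.1% of all Hlf site counts in nuclear RNA (9080 counts), against 12.9% in total, 4.81% in polysomal and 13.5% in Bmal1-/- RNA. The site at 90364970 to 90364988 had 30.1 ± 16.0 CPM in nuclear and 0.866 ± 0.595 in total RNA (SD, n = 36), with all nuclear libraries at 9.55 or more and all total RNA libraries at 1.95 or less. The site at 90371506 to 90371521 had 13.7 against 0.824 CPM and that at 90356590 to 90356601 had 9.25 against 0.329. All-site counts were 2.02 times the Hlf gene count in nuclear and 0.795 times in total RNA, so most of these inner reads do not enter the gene count used above. The lower nuclear level of Hlf given above rests on that gene count. Whether the sites lie in introns is not given by the tables used here. Tef had 4 such inner sites with 4.36% of its site counts in nuclear and 5.01% in total RNA, and Dbp and Nfil3 had 0.

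Most clock genes that act on these 4 genes passed the rhythm test in wild type, as the 4 did, while in the mutant almost no gene of any kind passed. In wild-type total RNA 10 of 11 tested clock genes and 12 of 13 tested liver genes known as outputs of PAR bZIP factors or NFIL3 passed the cosine test (edgeR), against 2 of 5 other bZIP genes (Cebpd, adjusted p = 0.01324, and Ddit3, adjusted p = 0.0111) and the 18.9% of all genes given above. In Bmal1-/- RNA 0 of 11, 0 of 13 and 0 of 5 passed, where 0.00825% of 12126 genes did, so that 0 is the outcome for almost any list. The difference in rhythm passed for 11 of 12 clock genes, 4 of 13 output genes (Alas1, Por, Cyp2b10, Ppara) and 0 of 5 other bZIP genes. Among all 12082 genes 5.18% passed. The 12 clock genes include Arntl, the gene mutated in Bmal1-/-. The lists' median log2 spans of that difference were 2.76, 1.79 and 0.46, against 0.36 over all genes.

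In day-mean level, 8 of 12 clock genes were higher and 3 lower in Bmal1-/- RNA (edgeR), where 44.1% of all genes passed (2701 higher, 2627 lower), with a list median of 0.36 against 0.01 over all genes. Arntl, the gene mutated in Bmal1-/-, is among the 12. Its reads, which can lie outside the deletion, averaged 11.5 CPM in the mutant and 6.74 in wild-type total RNA. The largest rises were in Npas2, a partner of BMAL1 (3.31, adjusted p = 9.655e-19), and the repressor Cry1 (1.72, adjusted p = 8.574e-26). Nr1d1, the REV-ERB repressor of RORE genes, fell by 3.38 ± 0.25 (SE, adjusted p = 1.924e-18), its relative Nr1d2 by 2.78 (adjusted p = 3.984e-25) and Per3 by 1.18 (adjusted p = 2.864e-09). In wild type, Nr1d1 had its fitted peak at ZT 6.78 and Arntl at 21.7. Dbp, at log2 -1.75, and Nfil3, at 0.44, changed in the same comparison.

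Of 13 output genes tested, 8 were lower, 1 was higher and 4 did not pass in Bmal1-/- RNA by edgeR, beside the same 44.1% of all genes called, with a median of -0.87 against 0.01 over all genes. Lower were Cyp2a5, a coumarin hydroxylase (-2.06, adjusted p = 9.656e-17), Por, the electron donor of cytochromes P450 (-0.87, adjusted p = 4.189e-07), and Ppara, the fatty acid receptor (-0.38, adjusted p = 0.004891). Cyp2a4, Acot1, Acot3, Acot4 and Cyp4a10 were lower too, but each has near-identical copies among which reads may be shared, as has Cyp2a5. Cyp2b10, a phenobarbital-induced enzyme, was higher (1.17, adjusted p = 3.302e-05). Alas1, the first enzyme of haem synthesis, had -0.33 (adjusted p = 0.1914), Nr1i3, the receptor CAR, -0.16 (adjusted p = 0.1442), and Cyp7a1, the rate-limiting enzyme of bile acid synthesis, 0.20 (adjusted p = 0.353). Wild-type fitted peaks of Alas1 (ZT 13.3), Por (14), Nr1i3 (14.6) and Cyp7a1 (14.8) lay after that of Dbp at 10.03. Among the other bZIP genes, Cebpa (-0.45) and Cebpb (-0.44) were lower.

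Genes most like each member were ranked by Pearson's r of log2(CPM + 0.5) over the 12 time-point means of wild-type and Bmal1-/- total RNA, among 8161 genes. These means share libraries and a common time course, so r is a description. Closest to Dbp were Slc38a3 (0.976), Gpcpd1 (0.965) and the clock gene Per3 (0.953). Slc38a3, a glutamine transporter, had mean levels from 196 CPM at ZT22 to 478 at ZT10. Closest to Tef were Stim2 (0.953), Arhgap21 (0.952) and Lmo7 (0.942), closest to Hlf were Cul4a (0.919), Nek9 (0.914) and Apeh (0.911), and among the closest to Nfil3 were Ddc (0.948) and Caprin1 (0.938). Ddc, the aromatic amino acid decarboxylase, had 172 CPM at ZT2 and 48.2 at ZT10. Among themselves, Tef and Hlf were most alike (0.873), ahead of Dbp and Tef (0.788) and of Dbp and Hlf (0.547). Dbp and Nfil3 were nearly mirror images (-0.970), which was the lowest r of any gene with Nfil3.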

How the data were processed

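Groups and replicate numbers came from the sample titles, and all columns were matched to a sample. The authors deposited raw counts per gene symbol and per polyadenylation site, 1 column per library, which were used as they stand; their normalized tables were not used. STAR 2.4.2a, edgeR, HOMER and the builds mm10 and GRCm38.p5 are named in the submitters' processing notes, without their roles, and the site filter is not given in the sources used here. Whether reads carried molecular identifiers is not given either.

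Depth was the sum of gene counts; among the 360 within-group pairs of libraries 0 were copies, with chi-square divided by its degrees of freedom at 4.35 or more. Tests used edgeR 4.0.16 in R 4.3.3 (quasi-likelihood F tests, robust, TMM scaling) on genes or sites averaging 10 or more counts in the fit, with Benjamini-Hochberg adjustment over all of them and a threshold of 0.05; DESeq2 1.42.0 was an alternative. The scripts were tested on simulated data. Rhythm was a cosine and sine of 24 h within a series. Levels were contrasts of the 6 time means on the log scale in 12 groups. SEs of contrasts come from the F statistic, those of peaks by the delta method. Ratios used log2 with a pseudocount of 0.5. Sites were given to genes by strand and RefSeq GRCm38.p6 bounds, up to 1000 bp past the end. Usage was fitted to site counts with the gene's summed site counts as offset, for sites with at least 5% of their gene, where a gene had at least 2 of them and averaged 50 counts. Genes whose summed site counts were under 0.3 or over 1.5 times the gene count were left out.

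The members, the lists of clock, output and bZIP genes and the cell type markers were chosen with earlier results of these data known. Named beside the members were genes of these lists past the threshold, with at most 4 per direction or as counterexamples, and the 3 genes most like each member, of which 1 is not reported here. Alternatives were another scaling or tool, no count filter, all series in 1 fit, a replicate block, and each replicate left out. Others were replicates 1 to 3 or 4 to 6 alone, the 4 Xist libraries left out and, for the ratio, pseudocounts of 0 and 5. For site usage, shares pooled over all of a gene's sites, with no test, were added after seeing the data.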

Additional observations from a re-analysis of the deposited data

Results flagged for a closer look

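In groups of 6 libraries, 2 of 96 groups of member levels held a value far from the rest by Dixon's criterion, where chance alone gives about 1 in 20, and 0 of 12 groups of the activator to Nfil3 ratio did. Tef in polysomal RNA at ZT2 had a value of 62.4 CPM in replicate 6, with the other 5 at 30.7 to 40.7. Hlf in polysomal RNA at ZT22 had 44.8 CPM in replicate 1, with the others at 69.7 to 81.6. That library is also the polysomal library with Xist reads and 1 of the 6 with lung markers, and its Dbp value of 5.99 CPM was the highest of its group (others 0.396 to 3.12). The part of either in these values was not tested.

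The daily curves differed between wild-type and Bmal1-/- total RNA for all 4 genes by edgeR's interaction test, with log2 spans of the difference of 6.27 for Dbp, 2.67 for Tef, 0.79 for Hlf and 2.05 for Nfil3.

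Among sites outside the authors' filtered list, the Hlf sites starting at 90356590 and 90364970 had 9.25 and 30.1 CPM in nuclear RNA, where no nuclear library fell as low as the highest total RNA library, and these sites enter no test of usage, only the pooled shares over all sites.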

How the results depend on the processing

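Of 540 alternatives to a member's rhythm, level or rhythm difference, 517 kept direction and side of the threshold, 12 lost and 10 gained a call and 1 reversed. With replicates 1 to 3 alone, Tef in polysomal against total RNA turned to -0.32; the cause was not tested for any of these. With replicates 1 to 3, calls of Tef in Bmal1-/- level (-0.39) and Dbp in nuclear level (0.54) were gained and those of polysomal rhythm lost for Hlf (1.17) and Nfil3 (1.81). With replicates 4 to 6, Dbp (0.74) and Tef (0.63) gained polysomal level calls, Hlf lost total (0.75) and nuclear (1.02) rhythm, nuclear level (-0.23) and rhythm difference (0.64), Nfil3 lost its rhythm difference (1.70), and usage of the main Hlf site in polysomal RNA turned to 0.017. With shares pooled over all sites, filtered or not, an alternative chosen after seeing the data, Hlf in nuclear RNA turned to -0.37 for the site at 90339378 and -0.90 for the gene-end site, and in polysomal RNA to 0.040 for the main site (unfiltered sites enter the total there). Of 24 contrasts, 6 passed between genotypes and 3 between times with replicates 4 to 6, and 0 ratio times with either set, where 3 against 3 cannot pass. With all series in 1 fit, the Hlf rhythm difference was 0.78 (adjusted p = 0.1244).

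Leaving out each replicate gave 0.30 to 0.44 for Dbp nuclear level, 0.22 to 0.61 for Dbp and 0.091 to 0.36 for Tef polysomal level, 1 to 3 members with a polysomal level call, and 0.68 to 0.98 for the Hlf rhythm difference. Genes with a rhythm then numbered 359 to 582 in nuclear, 425 to 702 in polysomal and 0 to 2 in Bmal1-/- RNA, with a rhythm difference 288 to 600 for Bmal1-/- and 0 to 2 for polysomal RNA.

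Genes with a rhythm numbered 1017 in wild-type total RNA with all series in 1 fit, and 1341 and 621 with replicates 1 to 3 and 4 to 6. In nuclear RNA the latter gave 174 and 237. In polysomal RNA there were 2107 without a count filter, 2733 with all series in 1 fit and 115 with replicates 1 to 3. In Bmal1-/- RNA there were 21 without a filter, 6 with all series, and 0 with either set of replicates, without the Xist libraries or by DESeq2. The rhythm difference of Bmal1-/- passed for 186 with all series in 1 fit and 236 and 200 with replicates 1 to 3 and 4 to 6; for nuclear RNA, 5 passed without a filter; for polysomal RNA, 424 without a filter, 22 with all series and 2 with replicates 4 to 6.

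Replicate numbers are shared by the series, but the labels do not say what they mark. Same-numbered nuclear and total libraries deviated together, with a mean r of 0.43 (-0.01 to 0.79, over 0.1 in 35 of 36 pairs, 31 of 36 nearest to their own number), polysomal and total libraries did not (mean -0.16, 1 of 36, 0 nearest), and Bmal1-/- and wild type gave 0.08 (18 of 36, 13 nearest), which is a hint from the data and not the design. With the number and time as a replicate block, Dbp in nuclear against total RNA gained a call (0.38, adjusted p = 0.0009358) and 1 gene passed for a nuclear rhythm difference. With the number as a replicate block, genes with a rhythm numbered 1505 in polysomal and 0 in Bmal1-/- RNA. Depth limits Dbp near its trough, where libraries held as few as 0 to 2 counts.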
